A study of Mus musculus with 36 samples.

Results

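The 10 genes described here are highly expressed housekeeping genes: Actb, Actg1 and Tubb5 of the cytoskeleton, Gapdh of glycolysis, Eef1a1 and Eef2 of translation, the chaperone genes Hsp90ab1 and Hspa8, the coat gene Cltc and the nucleolar gene Npm1. They were chosen by name, 10 of 21887 protein-coding genes on the named mouse chromosomes, and located by RefSeq coordinates of GRCm38.p6, the same build as mm10. Every peak over each gene and 5 kb either side was taken from 4 HA ChIP-seq peak lists, which gave 60 peaks. The peaks are the authors' MACS2 calls, each with a fold enrichment and a −log10 q, the caller's significance after adjustment. RNA was not measured in these files, so the words highly expressed rest on general knowledge of the genes.

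The groups were parental mouse embryonic stem cells, as opposed to the lines labelled HiraKO, H33DKO and DAXXKO and the neural cells of the same series, stably carrying a PiggyBac transgene for HA-tagged histone H4 in which lysine 91 was changed, to arginine in H4K91R and to glutamine in H4K91Q, or carrying the same transgene with wild-type H4 (H4WT) or an empty PiggyBac vector. Cells of all 4 lines also make their own untagged H4, and the labels do not give the promoter of the transgene or say whether a line is 1 clone. Of the 36 samples of the series, 18 were anti-HA pulldowns and 18 inputs, and 4 pulldowns were used, with 1 library per group. The lists held 49155 peaks for H4K91R, 14314 for H4K91Q, 69158 for H4WT and 3007 for the empty vector. Read numbers are absent from the lists, depth is therefore unknown, and a deeper library can pass weaker places. Without a second library per group, differences between the groups could not be set against replicate spread. Exact (Clopper-Pearson) 95% intervals cover the counting of genes or peaks only.

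Histone H4 pairs with H3 in the core of the nucleosome, and lysine 91 lies at the surface where this pair meets H2A and H2B. New H3 and H4 are laid down behind replication forks and, with the variant H3.3, in places where nucleosomes are lost, such as active promoters and transcribed bodies. Arginine keeps the positive charge of lysine, whereas glutamine removes it and is often used to imitate acetylation. Housekeeping promoters in mammals are usually rich in CpG and nucleosome-poor just before the start site, with well-placed nucleosomes after it.

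Wild-type H4 had a peak over the gene or 5 kb either side at all 10 genes, H4K91R at 7 and H4K91Q at 1, Actg1. There H4K91Q had 7 peaks beside 6 of H4K91R and 8 of H4WT. The H4K91R genes were Actg1, Gapdh, Eef2, Hsp90ab1, Hspa8, Cltc and Npm1, and the empty vector had a single peak, inside Eef2. At Gapdh the H4K91R peaks lay outside the annotated gene. Among all protein-coding genes the same window held a peak in 58.2% for H4K91R, 9.55% for H4K91Q, 71.6% for H4WT and 8.96% for the empty vector. The exact intervals for the members were 34.8 to 93.3% for H4K91R, 0.253 to 44.5% for H4K91Q, 69.2 to 100% for H4WT and 0.253 to 44.5% for the empty vector, and each held the share of all genes.

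**Figure D1:**
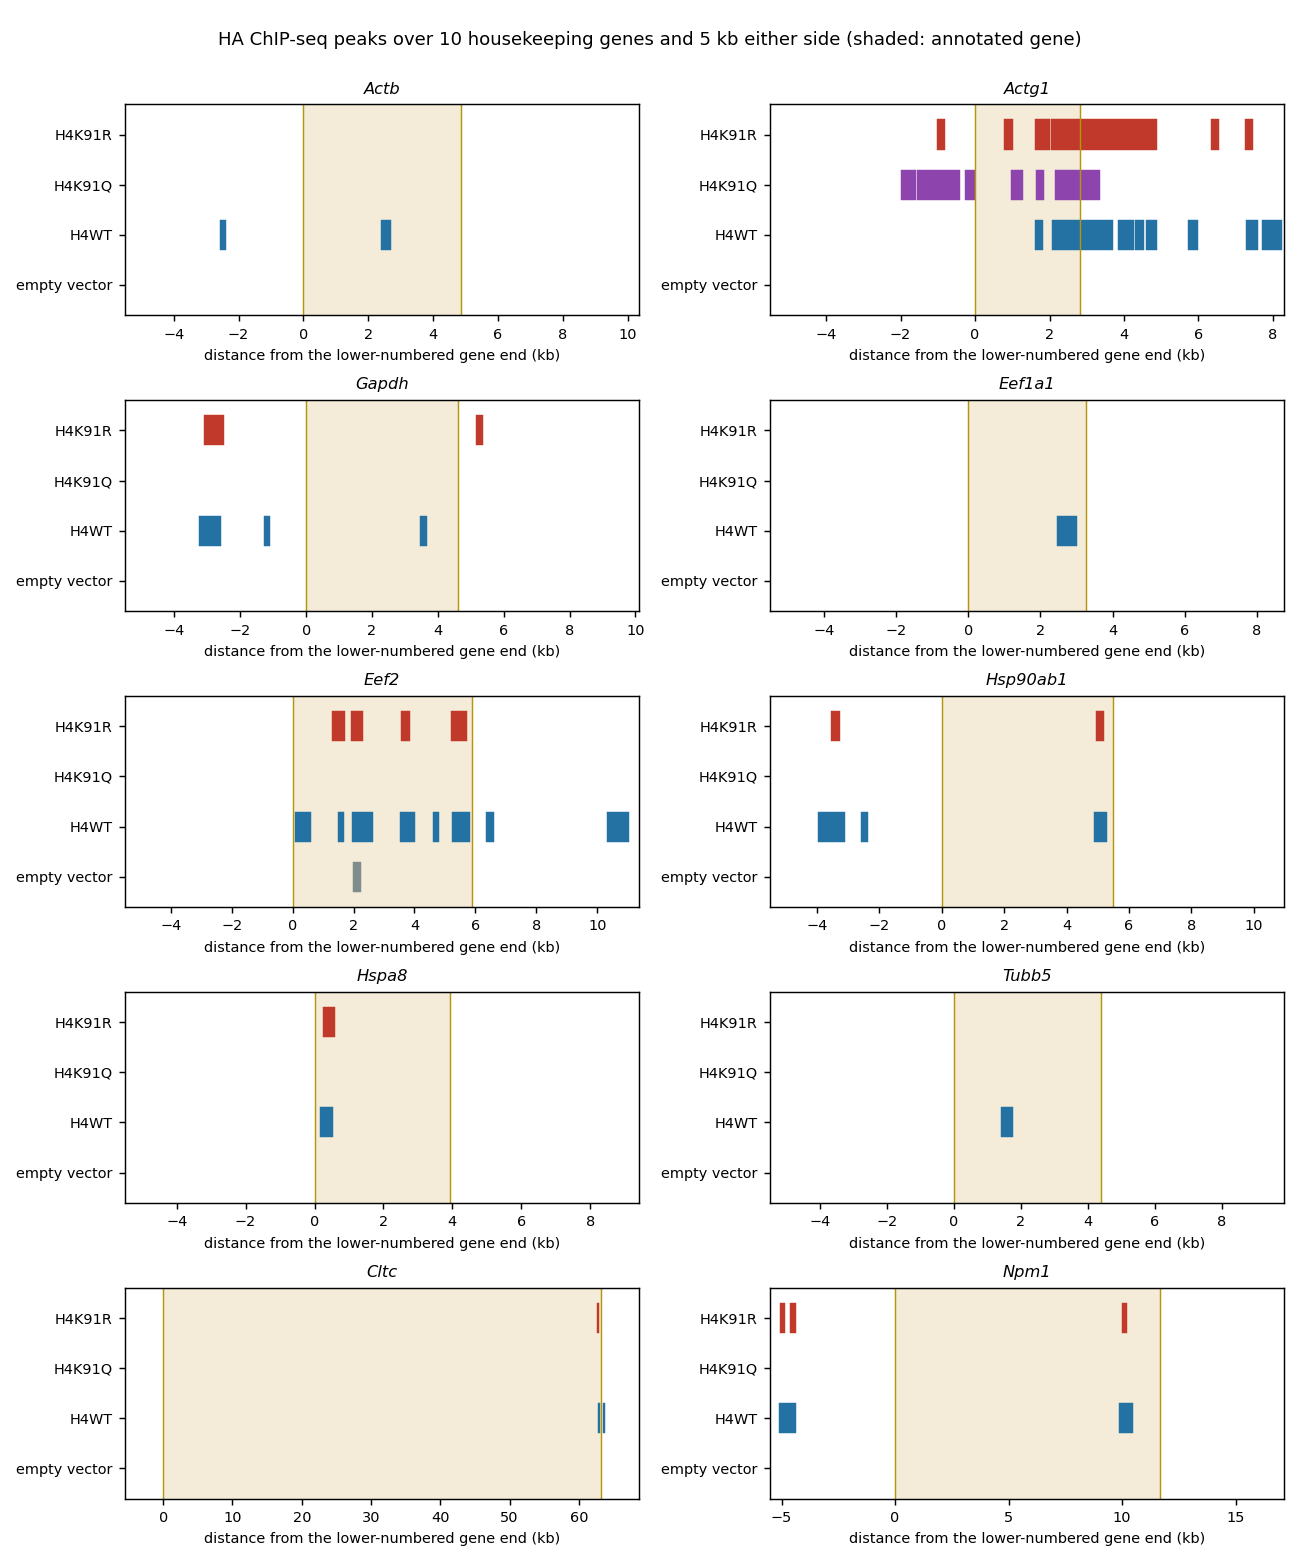
Peaks of the 4 libraries (rows) over each of the 10 genes and 5 kb either side, against the distance in kb from the gene end with the lower coordinate. Each block is 1 peak to scale and the shaded span is the annotated gene. Actg1 has blocks in all 3 tagged rows, whereas Actb, Eef1a1 and Tubb5 have H4WT blocks alone.

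Within 1 kb of a gene end, H4K91R had a peak at 6 members (38.3% of all protein-coding genes), H4K91Q at 1 (1.29%), H4WT at 7 (58.9%) and the empty vector at 0 (1.67%). The intervals of the members were 26.2 to 87.8% for H4K91R, 0.253 to 44.5% for H4K91Q and 34.8 to 93.3% for H4WT. Each interval held the share of all genes, so at 10 genes a difference from them was not detectable. Among the 14676 genes within the length range of the members the shares were 39.7% for H4K91R, 1.46% for H4K91Q, 62.6% for H4WT and 1.88% for the empty vector. Actg1 was the member with gene-end peaks of all 3 tagged histones, a combination held by 211 protein-coding genes (0.964%). Gapdh, Eef2, Hsp90ab1, Hspa8 and Cltc had H4K91R and H4WT peaks there, as did 34.1% of all protein-coding genes. Eef1a1 had H4WT alone, like 22.2%, and Actb, Tubb5 and Npm1 had no gene-end peak in any list, like 39.0%.

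**Figure D2:**
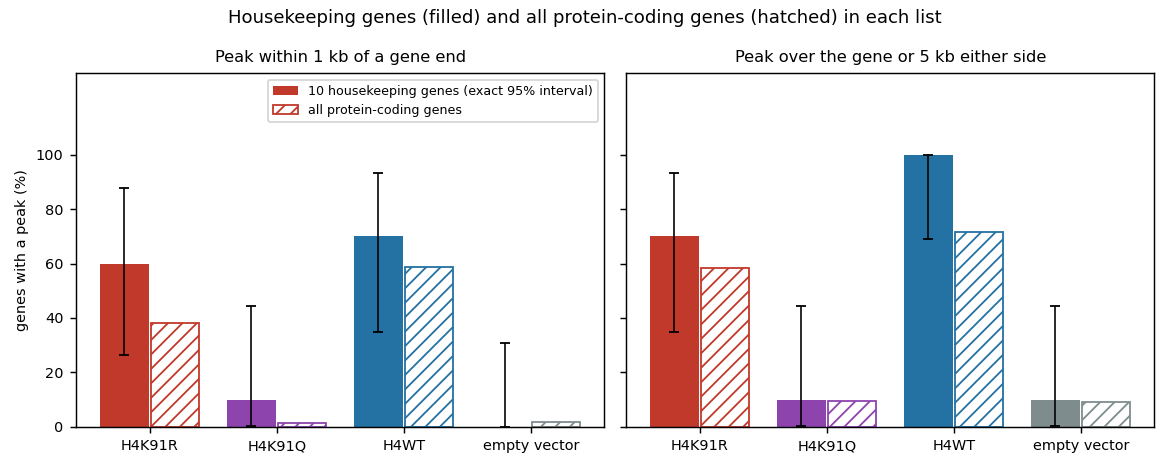
Percent of genes with a peak within 1 kb of a gene end (left) and over the gene or 5 kb either side (right), by library. Filled bars are the 10 housekeeping genes with exact 95% intervals and hatched bars are all protein-coding genes; H4WT reaches all 10 members on the right, and H4K91Q reaches 1 in both panels.

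Deeper in the gene, more than 1 kb from both ends, H4K91R had a peak at 3 members (40.5% of protein-coding genes over 2 kb), H4K91Q at 1 (7.35%), H4WT at 6 (50.3%) and the empty vector at 1 (7.14%). The H4K91R genes were Actg1, Eef2 and Npm1, and H4WT added Actb, Gapdh and Tubb5. The peaks of Actg1 and Gapdh counted here also reached within 1 kb of an annotated end. That of Gapdh lay 250 to 472 bp after the start site.

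By midpoint, the 19 H4K91R peaks of the members divided into 9 at gene ends, 4 elsewhere in the gene and 6 in the flanks. The 7 H4K91Q peaks divided into 3, 2 and 2, and the 33 H4WT peaks into 9, 10 and 14. Actg1 supplied 6 of the H4K91R peaks, all 7 of the H4K91Q peaks and 8 of the H4WT peaks. Without Actg1 the members held 13 H4K91R, 0 H4K91Q and 25 H4WT peaks. In fold enrichment, the authors' ratio of a summit to its background within a list, the median member peak stood at percentile 53.6 of the H4K91R list, 25.9 of the H4K91Q list and 56.8 of the H4WT list.

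Promoter sequence is shown for the 5 members that have both an entry in the RefSeq promoter table and an H4WT peak within 1 kb of the start site, because the peaks left this stretch uncovered at 4 of them and covered it at 1. The table, of build GRCm38.p6, has entries for Actg1, Gapdh, Eef1a1, Eef2, Tubb5 and Cltc, and none for Actb, Hsp90ab1, Hspa8 and Npm1. Each line gives the 250 bases before the start site, 5′ to 3′ on the strand of the gene. Capitals mark the letters of the CCAAT box, a TATA box (TATAAA) or the core of an Sp1 site (GGGCGG) on either strand, and the CArG box in Actg1. The stretches lie at chr11:120348496-120348745 (minus) for Actg1, chr6:125165774-125166023 (minus) for Gapdh, chr9:78481725-78481974 (minus) for Eef1a1, chr10:81176381-81176630 (plus) for Eef2 and chr11:86757568-86757817 (minus) for Cltc.
Actg1: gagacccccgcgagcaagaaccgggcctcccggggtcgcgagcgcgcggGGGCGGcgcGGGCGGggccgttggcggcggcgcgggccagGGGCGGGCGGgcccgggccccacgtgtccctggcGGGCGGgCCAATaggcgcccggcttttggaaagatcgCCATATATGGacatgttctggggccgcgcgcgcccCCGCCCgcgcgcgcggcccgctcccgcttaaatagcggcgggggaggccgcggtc
Gapdh: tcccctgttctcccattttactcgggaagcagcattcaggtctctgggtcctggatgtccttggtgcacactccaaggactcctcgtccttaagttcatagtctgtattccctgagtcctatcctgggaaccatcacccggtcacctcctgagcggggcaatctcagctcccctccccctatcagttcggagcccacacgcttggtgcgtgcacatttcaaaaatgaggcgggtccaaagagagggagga
Eef1a1: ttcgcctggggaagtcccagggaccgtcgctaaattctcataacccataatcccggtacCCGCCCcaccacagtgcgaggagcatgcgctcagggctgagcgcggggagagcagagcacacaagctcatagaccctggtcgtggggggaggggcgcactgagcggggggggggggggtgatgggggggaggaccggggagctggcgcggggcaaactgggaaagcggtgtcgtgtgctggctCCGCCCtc
Eef2: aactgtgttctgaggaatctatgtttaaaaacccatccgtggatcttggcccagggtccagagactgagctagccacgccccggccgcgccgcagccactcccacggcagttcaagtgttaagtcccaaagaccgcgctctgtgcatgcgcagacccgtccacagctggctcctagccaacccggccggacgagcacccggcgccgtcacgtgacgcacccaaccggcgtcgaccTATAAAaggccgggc
Cltc: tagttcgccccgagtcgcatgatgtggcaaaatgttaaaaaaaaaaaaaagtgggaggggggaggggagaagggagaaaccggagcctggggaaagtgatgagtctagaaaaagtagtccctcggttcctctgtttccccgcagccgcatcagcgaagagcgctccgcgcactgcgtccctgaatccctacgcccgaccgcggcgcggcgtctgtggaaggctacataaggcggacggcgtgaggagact

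These promoters differed widely in composition. Over the whole 300-base window (250 before and 50 after the start), Actg1 had 50 CpG and 77.3% GC, percentiles 99.1 and 97.3 among 21263 promoters of protein-coding genes. Gapdh had 12 CpG and 56.7% GC, near the medians of 13 and 56.3%. Eef2 had 34 CpG, Cltc 27, Eef1a1 22 and Tubb5 20. The Sp1 core occurred 6 times in Actg1, with 1 overlapping pair, 2 times each in Eef1a1 and Tubb5 and once in Cltc, and 46.2% of all promoters hold it. The TATA box letters stood in Eef2 alone (12.6% of promoters), and the CCAAT letters once in Actg1 and 2 times in Tubb5 (38.2%). The motif GAANNTTC, part of a heat shock element, was in 0 of the 6 (7.21%). All were searched on both strands. The CArG box, a motif bound by serum response factor that was looked for after reading these sequences, was present in Actg1 (1.52% of promoters). These are letter matches in a window and say nothing of binding.

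At the start site, the H4WT peaks of Gapdh, Eef1a1, Eef2 and Cltc lay beside the promoter window, and those of Actg1 over it. Within 1 kb of the start, H4K91R had a peak at 2 of the 6 genes with an entry (35.3% of protein-coding genes with an entry), H4K91Q at 1 (0.675%), H4WT at 5 (58.0%) and the empty vector at 0 (0.858%). In the first 1 kb after the start, H4K91R had a peak at 2 of 6 (32.2%), H4K91Q at 1 (0.595%), H4WT at 5 (54.8%) and the empty vector at 0 (0.783%). In the 1 kb before it, H4K91R had a peak at 1 of 6 (18.4%), H4K91Q at 1 (0.469%), H4WT at 2 (39.4%) and the empty vector at 0 (0.212%). At the other gene end the counts were 2 of 6 for H4K91R (11.0%), 1 for H4K91Q (0.852%), 1 for H4WT (17.9%) and 0 for the empty vector (1.04%). The 300-base promoter window itself was met by H4K91R at 1 of 6 (18.7%), by H4K91Q at 1 of 6 (0.4%) and by H4WT at 1 of 6 (43.1%), each time at Actg1, and by the empty vector at 0 (0.234%). Of the 5 genes with an H4WT peak within 1 kb of the start, 1 had a peak over the window (exact 95% interval 0.505 to 71.6%). Among 8060 protein-coding genes with a single start site and an H4WT peak that near, 72.0% had one over the window, just outside that interval. This comparison was chosen after the positions were seen and rests on 5 genes. With only peaks of a −log10 q of at least 5 it stayed at 1 of 5 genes (interval 0.505 to 71.6%), against 71.7%, again just outside. In lists of equal length it became 1 of 3 genes (interval 0.840 to 90.6%), against 72.1%, which that interval held. For H4K91R it was 1 of 2 genes, against 49.8%, and for H4K91Q 1 of 1, against 53.9%.

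**Figure D3:**
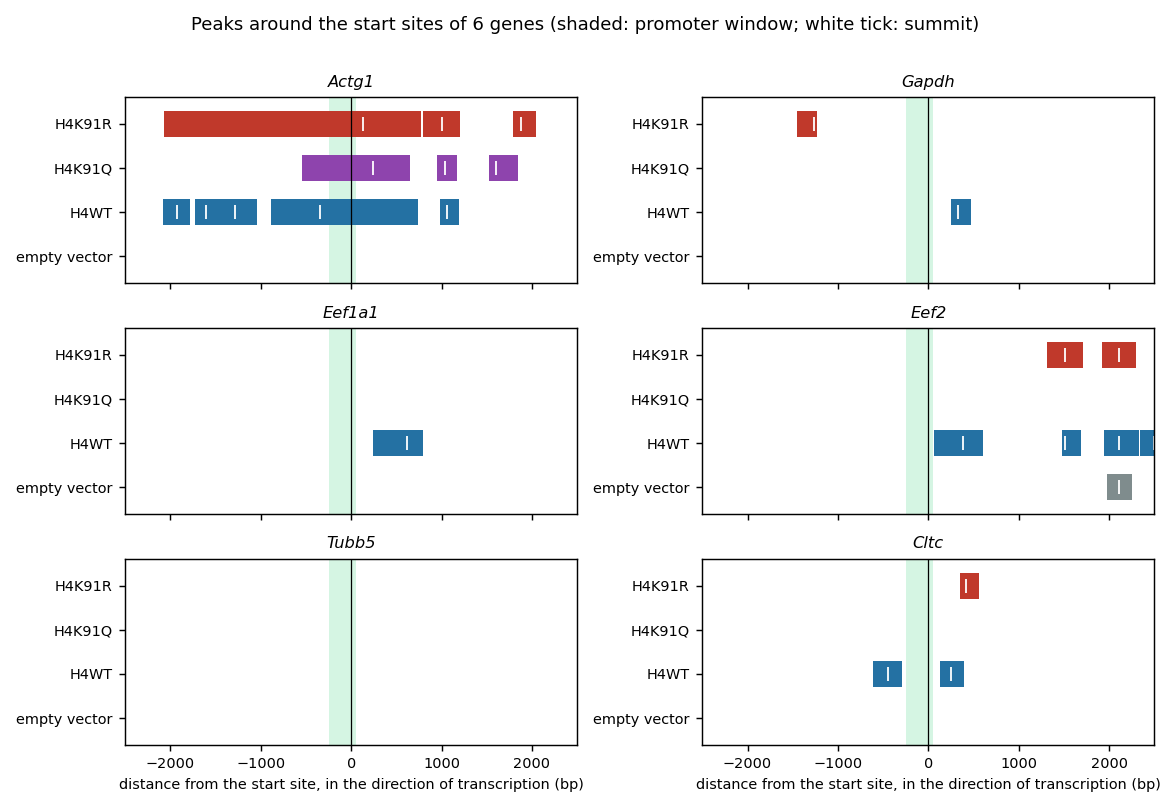
Peaks of the 4 libraries (rows) on both sides of the start site of the 6 genes with a promoter entry, in bp along the direction of transcription. Blocks are peaks, white ticks summits and the shaded band the promoter window. Blocks cover the band at Actg1, and the H4WT blocks of Gapdh, Eef1a1, Eef2 and Cltc lie beside it.

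Among the cytoskeletal genes, Actg1 had the most peaks of the members in the H4K91R and H4K91Q lists and Actb had none there. Actb and Actg1 encode beta- and gamma-actin, nearly identical proteins of the actin filament. Actb (chromosome 5, 142903115 to 142907976) had 0 H4K91R, 0 H4K91Q, 2 H4WT and 0 empty-vector peaks. The H4WT peaks were modest, 288 bp inside the gene (142905523 to 142905810, fold 4.81, percentile 24.8 of its list) and 198 bp in the flank (fold 5.41, percentile 43.4). The flank peak overlaps the long non-coding gene Gm38733.

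Actg1 (chromosome 11, 120345687 to 120348495, 2809 bp) had 6 H4K91R, 7 H4K91Q, 8 H4WT and 0 empty-vector peaks. They covered 32.5% of its window for H4K91R, 27.8% for H4K91Q and 27.1% for H4WT. By fold, the highest member peak of all 3 tagged lists lay across the Actg1 start site. The H4K91R peak ran over 2835 bp (120347727 to 120350561) with a fold of 25.2, rank 75 of the 49155 peaks in its list, and a −log10 q of 65.7. The H4K91Q peak was 1195 bp wide (120347840 to 120349034), with a fold of 7.56 at percentile 89.3 of its list and a −log10 q of 16.4. The H4WT peak was 1627 bp wide (120347753 to 120349379), with a fold of 12.6 at percentile 99.1 and a −log10 q of 30.6. The H4K91Q peak lay wholly within the H4WT peak, with 1195 bp in common, and its summit was 112 bp from that of H4K91R and 578 bp from that of H4WT. The summits were 126 bp after the start for H4K91R, 238 bp after it for H4K91Q and at position −340 for H4WT.

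Away from the start, the remaining H4WT peaks at Actg1 lay mainly upstream and the H4K91Q peaks downstream. H4WT had 6 peaks in the flank before the start, the nearest from 120349535 to 120349969, and 0 beyond the other gene end. The wide H4K91R peak reached over the 3 nearest of these. H4K91R had 2 further peaks in the flank before the start, and 1 just beyond the other gene end (120344667 to 120344881, fold 5.43). H4K91Q had 0 peaks in that upstream flank and 4 at or beyond the other end, between 120343711 and 120345691, with folds of 3.46 to 5.99. Of these 4, 1 met an H4K91R peak and 0 met H4WT. A smaller place 1 kb after the start, over the microRNA gene Mir6935, was common to all 3. Its peaks were H4K91R (120347292 to 120347701), H4K91Q (120347324 to 120347548) and H4WT (120347300 to 120347509), with summits within 57 bp of the H4WT summit. Further inside the gene, H4K91R had a peak from 120346453 to 120346710 (fold 7.63, percentile 89.3 of its list). It shared 66 bp with an H4K91Q peak (120346645 to 120346969, fold 4.42), and no H4WT peak met either. The long non-coding gene 0610009L18Rik (120348678 to 120351190) has an annotated end within the promoter stretch shown for Actg1, so the upstream peaks cannot be assigned to 1 of these genes.

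At least 7 H4K91Q peaks in the 5 kb window occurred at 70 protein-coding genes (0.32%), whereas at least 6 H4K91R peaks occurred at 7.84% and at least 8 H4WT peaks at 10.6%. Within 50 kb of Actg1 there were 21 H4K91R, 15 H4K91Q, 30 H4WT and 2 empty-vector peaks. These include the peaks of the window itself. At least as many peaks lay within 50 kb of 4.28% of protein-coding genes for H4K91R, 0.201% for H4K91Q (44 genes), 7.82% for H4WT and 7.37% for the empty vector. The other 9 members had 0 H4K91Q peaks within 50 kb, except Actb with 1. Of all protein-coding genes, 32.3% had at least 1 within that distance, so 0 was the usual value.

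Tubb5 (chromosome 17, 35833920 to 35838301) encodes a beta-tubulin of the microtubule. It had 0 H4K91R, 0 H4K91Q, 1 H4WT and 0 empty-vector peaks. The H4WT peak lay inside the gene, 2605 to 2965 bp after the start (35835336 to 35835696), with a fold of 8.67 at percentile 88.7 of its list. Its promoter and both ends were free of peaks in all 4 lists.

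Gapdh (chromosome 6, 125161852 to 125166467), the glycolytic glyceraldehyde-3-phosphate dehydrogenase gene, had 2 H4K91R, 0 H4K91Q, 4 H4WT and 0 empty-vector peaks. The annotated gene end lies 694 bp before the start site of the promoter table. The gene span includes a predicted transcript, but which transcript sets that end was not examined. Near the start, H4K91R and H4WT held different places. The H4K91R peak lay at −1450 to −1231 from the start (125167004 to 125167223, fold 4.61), within 1 kb of an end of the neighbouring condensin gene Ncapd2. The H4WT peak lay 250 to 472 bp after the start (125165301 to 125165523, fold 4.95, percentile 29.0). The shared place was outside Gapdh, in its neighbour Iffo1, with a 615 bp H4K91R peak (125158749 to 125159363, fold 7.26) over a pair of H4WT peaks with folds of 5.43 and 6.47.

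The translation genes Eef1a1 and Eef2 code for the elongation factors that bring aminoacyl-tRNA to the ribosome and move it along the message. Eef1a1 (chromosome 9, 78478453 to 78481724) had 0 H4K91R, 0 H4K91Q, 1 H4WT and 0 empty-vector peaks. Its H4WT peak lay 245 to 798 bp after the start (78480926 to 78481479), with a fold of 6.71 at percentile 69.2. No other peak was found over the gene or 5 kb either side.

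Eef2 (chromosome 10, 81176631 to 81182509) had 4 H4K91R, 0 H4K91Q, 9 H4WT and 1 empty-vector peaks. Peaks covered 10.1% of its window for H4K91R and 22.6% for H4WT, higher than at 96.6% and 97.9% of protein-coding genes. The H4WT peak at the start, 68 to 609 bp after it (81176699 to 81177240, fold 7.70), had no H4K91R counterpart. All 4 H4K91R peaks lay further in and each met an H4WT peak, with summits 0, 4, 7 and 294 bp apart.

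The empty-vector peak of Eef2 (81178612 to 81178879, fold 3.44, −log10 q 11.1) coincided with an H4K91R peak (fold 5.59, −log10 q 25.1) and with an H4WT peak (fold 6.92, −log10 q 44.5). Its summit was 1 bp from that of H4K91R and 3 bp from that of H4WT. This line makes no tagged histone, so the place is also recovered without one. It lies beside Snord37, a small nucleolar RNA gene within Eef2. With peaks that meet an empty-vector peak left out, Eef2 keeps 3 H4K91R and 8 H4WT peaks, and it was the only member with an empty-vector peak in its window.

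Both chaperone genes had overlapping H4K91R and H4WT peaks at a gene end. Hsp90ab1 (chromosome 17, 45567778 to 45573261), the constitutive cytosolic HSP90 gene, had 2 H4K91R, 0 H4K91Q, 3 H4WT and 0 empty-vector peaks. At its higher-numbered end an H4K91R peak (45572721 to 45572977, fold 4.90) lay wholly inside an H4WT peak (45572662 to 45573082, fold 5.36), with summits 11 bp apart. A stronger H4WT peak of the window (45563798 to 45564673, fold 10.6, percentile 96.2) lay at an end of the neighbouring transporter gene Slc35b2, again with an H4K91R peak inside it (fold 4.23).

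Hspa8 (chromosome 9, 40801276 to 40805202), the constitutive HSC70 gene, had 1 H4K91R, 0 H4K91Q, 1 H4WT and 0 empty-vector peaks. The H4K91R peak (40801522 to 40801861, fold 7.24, percentile 86.3 of its list) and the H4WT peak (40801445 to 40801812, fold 6.09, percentile 59.0 of its list) shared 291 bp, with summits 75 bp apart, inside the gene near its lower-numbered end. No peak of any list lay over the small nucleolar RNA genes further along Hspa8.

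Cltc (chromosome 11, 86694352 to 86757567), the clathrin heavy chain gene of vesicle coats, is the longest member at 63216 bp. It had 1 H4K91R, 0 H4K91Q, 2 H4WT and 0 empty-vector peaks, all within 1 kb of the start, so the rest of the gene body was free of peaks. The H4WT peaks stood on both sides of the promoter, at −616 to −294 from the start (86757861 to 86758183, fold 8.74, percentile 88.9) and 132 to 395 bp after it (86757172 to 86757435, fold 5.30). The H4K91R peak (86757002 to 86757216, fold 4.23, percentile 10.2) shared 45 bp with the second of these.

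Npm1 (chromosome 11, 33152498 to 33164142), the gene of the nucleolar histone chaperone nucleophosmin, had 3 H4K91R, 0 H4K91Q, 2 H4WT and 0 empty-vector peaks. Inside the gene an H4WT peak (33162378 to 33162956, fold 7.77, percentile 81.8) contained an H4K91R peak (33162494 to 33162708) that was among the weakest of its list, with a fold of 3.40 at percentile 0.500. In the flank a 736 bp H4WT peak (33147379 to 33148114, fold 8.33), at an end of the growth factor gene Fgf18, met 2 H4K91R peaks with folds of 5.51 and 6.41.

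**Figure D4:**
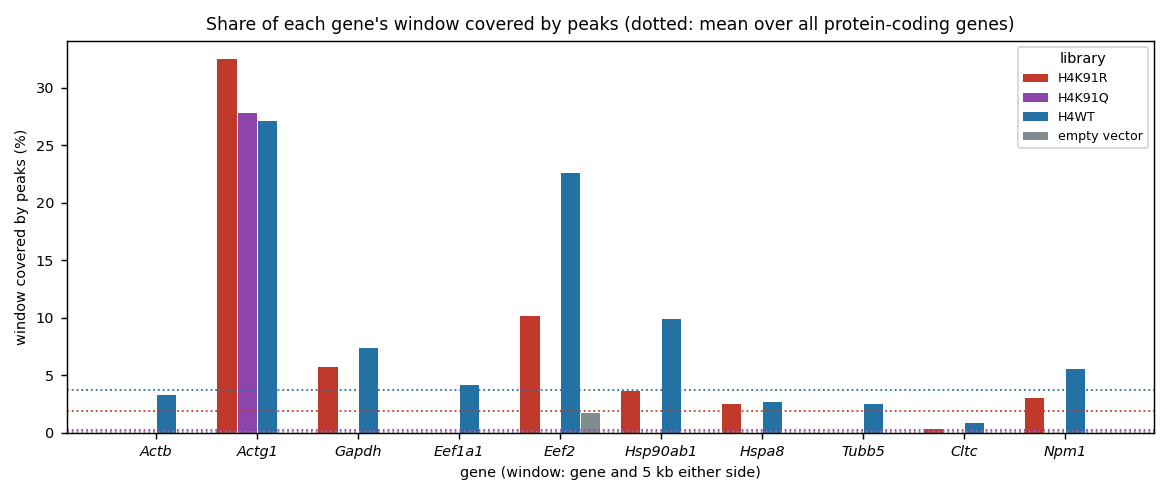
Percent of each gene's window (the gene and 5 kb either side) covered by peaks, by gene and library. Dotted lines are the means over all protein-coding genes, 1.86% for H4K91R, 0.227% for H4K91Q, 3.70% for H4WT and 0.0627% for the empty vector; Actg1 has the tallest bars of the 3 tagged libraries, followed by Eef2 for H4K91R and H4WT.

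Over the 10 windows, the median share covered by peaks was 2.72% for H4K91R, 0% for H4K91Q and 4.85% for H4WT. For all protein-coding genes the medians were 0.464% for H4K91R, 0% for H4K91Q and 1.28% for H4WT. For the genes between 2809 and 63216 bp long they were 0.858% for H4K91R, 0% for H4K91Q and 1.98% for H4WT. The range among members was wide, 0 to 32.5% for H4K91R and 0.802 to 27.1% for H4WT, with Cltc the lowest for H4WT.

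Of the 19 H4K91R peaks, 15 overlapped an H4WT peak by at least 1 bp (78.9%, 54.4 to 93.9), with a median of 101 bp between summits, against 55.2% of the whole H4K91R list. Outside Actg1 it was 12 of 13, and the exception was the upstream peak of Gapdh. Of the 33 H4WT peaks, 18 met an H4K91R peak (54.5%, 36.4 to 71.9), against 38.5% of the whole list. For H4K91Q, 4 of its 7 peaks met H4K91R (whole list 54.0%) and 2 of 7 met H4WT (whole list 19.5%). The intervals held the shares of the whole lists, narrowly for H4K91R meeting H4WT, and peaks of 1 gene are not independent of each other.

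The H4K91R and H4WT gene-end counts were lower in lists of equal length, and shortened lists hold fewer peaks by construction. Why the complete lists differ in length was not tested. For equal length, the H4K91R and H4WT lists were shortened to their 14314 peaks of highest −log10 q, the length of the whole H4K91Q list. The lowest −log10 q kept was 6.57 for H4K91R, 1.40 for H4K91Q and 10.8 for H4WT, so equal length was not equal stringency. H4K91R then kept gene-end peaks at 3 members (Actg1, Eef2 and Hspa8), H4K91Q at 1 (Actg1) and H4WT at 3 (Actg1, Eef2 and Cltc). All protein-coding genes then had 14.4% for H4K91R, 1.29% for H4K91Q and 29.7% for H4WT. The H4WT peaks of Gapdh, Eef1a1, Hsp90ab1 and Hspa8 at gene ends fell below that length. With only peaks of a −log10 q of at least 5, H4K91R likewise had gene-end peaks at Actg1, Eef2 and Hspa8 (25.2% of all protein-coding genes), and H4WT still had them at 7 members (54.2%).

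Related genes, taken from 8 lists of paralogues and pathway partners with 77 symbols, were counted in the same way at gene ends. H4K91Q had a gene-end peak at 0 of them in every list, and 1.29% of all protein-coding genes have one. Of the other actins, H4K91R marked 1 of 4 and H4WT 2 of 4, led by the skeletal muscle actin gene Acta1 with an H4WT fold of 11.3. Of 12 genes of glycolysis and the Gapdh paralogue Gapdhs, H4K91R marked 6 and H4WT 10, with the pyruvate kinase gene Pkm the highest for H4WT at a fold of 10.3. Of 6 other elongation factor genes, H4K91R marked 3 and H4WT all 6, led by Eef1d at a fold of 8.75.

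The chaperone list, 16 genes of the HSP90 and HSP70 families and 2 heat shock factors among them, had 7 genes with H4K91R and 12 with H4WT, led by Hspa12b at an H4WT fold of 10.7. It includes the near-identical pair Hspa1a and Hspa1b, between which reads may be divided. Of 13 other tubulins, H4K91R marked 8 and H4WT 11, led by Tubb6 (H4WT fold 13.4), and the neuronal Tubb3 also had an empty-vector peak. Of 8 clathrin coat partners, H4K91R marked 6 and H4WT 7, led by the adaptor gene Ap2a2 (H4WT fold 13.3). Of 6 nucleoplasmin and nucleolar genes, H4K91R marked 2 and H4WT 4, led by the fibrillarin gene Fbl (H4WT fold 8.97). Of 13 other common reference genes, H4K91R marked 3 and H4WT 11.

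**Figure D5:**
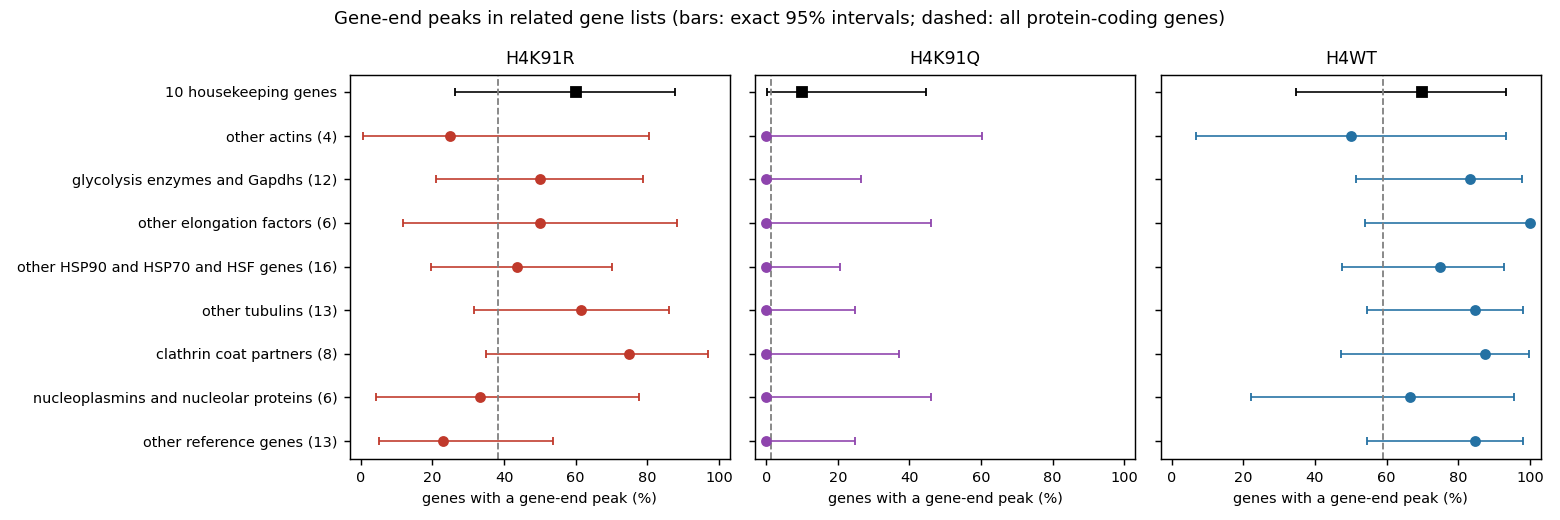
Percent of genes with a peak within 1 kb of a gene end, for the 10 housekeeping genes (squares) and 8 related gene lists (circles, number of genes in parentheses), in the H4K91R, H4K91Q and H4WT lists. Bars are exact 95% intervals and dashed lines all protein-coding genes (38.3%, 1.29% and 58.9%). The intervals all include the dashed line, and the H4WT circles lie above it except for the other actins.

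Against all protein-coding genes (38.3% for H4K91R and 58.9% for H4WT), the exact interval of each of the 8 lists held the share of all genes in both libraries. These intervals are wide because each list is short. For H4WT the share itself was above that of all genes in every list except the other actins. For H4K91R it was below in the other actins, the nucleolar genes and the other reference genes, and above in the remaining lists. The lists were not pooled, so a common excess for H4WT was not tested. Among the other reference genes, B2m had the same gene-end combination as Gapdh, Eef2, Hsp90ab1, Hspa8 and Cltc, with H4K91R and H4WT. Hprt, Ppia, Gusb, Sdha, Tbp, Polr2a, Tfrc and Ubb matched Eef1a1, with H4WT alone, and Ywhaz and Pgk1 matched Actb, Tubb5 and Npm1, with a gene-end peak in no list.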

How the data were processed

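HA ChIP-seq peak lists of 4 pulldowns were used, and the other 32 samples were not analysed here. Peaks were called with MACS2 on mm10, per the submitters' processing notes, and peak names pair each pulldown with the input from that line. Not given in the sources used here are the aligner, the caller's version, the q threshold and the handling of duplicates and of reads matching several places. Several members have near-identical relatives or processed pseudogenes, where that handling matters; its part in the results was not tested. The authors' score equals 10 times the −log10 q, rounded down, in 100% of deposited peaks. The fold enrichment is the authors' ratio at the summit, used to describe and rank peaks within a list and not compared between lists. The −log10 p deposited by the authors was not used, and their −log10 q served to shorten lists.

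Genes came from RefSeq (GRCm38.p6). A peak counted where at least 1 bp lay in a window, gene ends being 1 kb on each side of both annotated ends, and peaks were placed by midpoint. Exons were not told apart. With 1 library per group no difference was tested. The named-gene rule took all 10 members, neighbours at their peaks, and per related list the gene of highest H4WT fold and any with an H4K91Q peak; the leading gene of the other reference genes is not reported here. The members and lists were chosen with earlier results of these data known. All 77 related symbols matched. Placement recovered 500 of 500 simulated gene-end, 499 of 500 body and 500 of 500 flank peaks. This checked the code only, with narrow peaks clear of the window edges. The genes used were isolated and longer than Actg1, Eef1a1 and Hspa8, so wide peaks and crowded places were not covered. Python 3.11.15, pandas 2.3.3 and SciPy 1.17.1 were used.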

Additional observations from a re-analysis of the deposited data

How the results depend on the processing

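Of 110 counts recomputed under alternatives, 94 stayed within 1.5 times the main count and 16 moved further. With peaks under a −log10 q of 5 left out, gene-end peaks of H4K91R stood at 3 members (25.2% of all protein-coding genes). H4K91R then had 3 flank peaks in all, and H4K91Q 1 body and 1 flank peak. In tagged lists of equal length, gene-end peaks were found at 3 members for H4K91R (14.4% of all protein-coding genes) and 3 for H4WT (29.7%). H4WT had a peak over the gene or flank at 6 members in them (41.1% of all protein-coding genes, 71.6% in the complete lists). H4K91R peaks met H4WT at 3 members, a count with no share of all genes computed. H4K91R then had 5 gene-end, 2 body and 2 flank peaks, and H4WT 5, 3 and 3. The empty vector reached 1 member with gene-end windows of 2 kb and 2 members with a flank of 10 kb. Shares of all genes under these wider windows were not computed. Among genes in the length range of the members, the share with a gene-end peak was 39.7% for H4K91R, 1.46% for H4K91Q, 62.6% for H4WT and 1.88% for the empty vector, each outside the exact interval of the share over all genes but close to it. Shorter lists hold fewer peaks by construction, and the cause of the other moves was not tested. The promoter-window counts were recomputed in shorter lists as a choice made after seeing the data, and stayed at 1 gene, Actg1, in each tagged list. No paired analysis was possible because each group has 1 library and no test was made.

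Depth is unknown, so signal under the threshold of the caller was not detectable. With 10 genes the exact intervals are wide. RefSeq gene spans include predicted transcripts for Actb, Gapdh, Cltc and Npm1, so a gene end need not be the main start site there. At Cltc the annotated end is the start site of the promoter table. The start was not told from the other end for Actb, Hsp90ab1, Hspa8 and Npm1.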

Other observations

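Most H4K91R and H4WT flank peaks of the members stood at or in another annotated gene. The counts were 5 of 6 for H4K91R, 12 of 14 for H4WT and 0 of 2 for H4K91Q. The same share for flank peaks of all protein-coding genes was not computed. Whether these counts differ from the usual value is therefore unknown. Neighbours with such H4K91R or H4WT peaks were Gm38733 at Actb, 0610009L18Rik at Actg1, Iffo1 at Gapdh, the kinase gene Dapk3 at Eef2, Slc35b2 at Hsp90ab1 and Fgf18 at Npm1. At Dapk3 (chromosome 10, 81182987 to 81193197), H4WT had peaks from 81182987 to 81183249 with a fold of 7.89 and from 81186937 to 81187683 with a fold of 9.29, and H4K91R had no peak at these places.

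H4K91R and H4WT also met at a place of low fold in Eef2. The H4K91R peak from 81177939 to 81178346 had a fold of 4.56 and a −log10 q of 19.5, and the H4WT peak from 81178106 to 81178321 had a fold of 2.56, at percentile 0.0839 of its list, and a −log10 q of 6.89. Both summits fell on the same base, 1515 bp after the start, and the empty-vector peak began 291 bp beyond the nearer edge of the H4WT peak.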
